A study of Mus musculus with 4 samples.

Results

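Genes of oxidative defence were followed through CD11b+ splenocytes in steady state and after GM-CSF. The 8 genes were taken by name from the 27998 genes of the count table: Cybb, Cyba, Ncf1, Ncf4 and Rac2 of the phagocyte NADPH oxidase, Nos2, Irg1 and Sod2. They were described by the deposited cell types and by the deposited clusters and subsets of the monocytes, macrophages and DCs, which the study names the Focus bundle. CITE-seq, which reads the RNA of single cells together with antibody-derived tags bound to their surface, was run on 1 library of each state. The steady-state library came from mice without cytokine, and the other library from mice given GM-CSF subcutaneously once a day for 3 days at 10 µg per injection, with cells isolated 24 h after the last dose. The study's methods state C57BL/6 animals and an age of 8 to 12 weeks for all mice, while the number of mice pooled into a library is not given in the sources used here. Each state was 1 library, so the effect of GM-CSF and that of the library cannot be told apart, no test between states was possible, and no p is given.

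The phagocyte NADPH oxidase moves electrons from NADPH across a membrane onto oxygen and so makes superoxide, from which phagocytes derive the oxidants that kill ingested microbes. Its catalytic core is a heterodimer in the membrane, formed by the protein of Cybb and the smaller protein of Cyba, which stabilizes it. Upon activation, cytosolic proteins join this core, among them the organizer made by Ncf1, the lipid-binding subunit made by Ncf4 and the small GTPase Rac2. Loss of Cybb or of its partners underlies chronic granulomatous disease. Nos2 is the inducible nitric oxide synthase of activated macrophages, Irg1 (Acod1 in current annotation) makes itaconate from cis-aconitate in mitochondria, and Sod2 is the mitochondrial superoxide dismutase.

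The 8 genes lie on 7 chromosomes of GRCm38. Cybb spans chrX:9435252-9487771 on the minus strand, Irg1 chr14:103046977-103056573 on the plus strand, Nos2 chr11:78920787-78960254 on the plus strand and Sod2 chr17:13006846-13040063 on the plus strand. Ncf4 (chr15:78244801-78262580, plus strand) and Rac2 (chr15:78559167-78572783, minus strand) share a chromosome. Cyba (chr8:122424776-122432930, minus strand) overlaps Gm20388, and Ncf1 (chr5:134220053-134229625, minus strand) overlaps Gtf2ird2, each on the opposite strand. Reads of these overlaps are assigned by strand in a stranded protocol, and how they were assigned here is not given in the sources used.

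The promoters of Cybb and Irg1 are shown because these 2 genes were past 2-fold between the states in the granulocytes and in the Focus bundle. Each is the RefSeq window on GRCm38.p6 from 250 bases before to 50 bases after the annotated start, 5′ to 3′ on the strand of the gene. The Cybb window lies inside the gene span given above, so its RefSeq start differs from the start of that span on the minus strand. Capitals mark matches on either strand to GGGNNNNNCC (a loose NF-kB type motif), GAGGAA (a PU.1 type core) and CCAAT.

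Cybb, chrX:9469275-9469574, minus strand: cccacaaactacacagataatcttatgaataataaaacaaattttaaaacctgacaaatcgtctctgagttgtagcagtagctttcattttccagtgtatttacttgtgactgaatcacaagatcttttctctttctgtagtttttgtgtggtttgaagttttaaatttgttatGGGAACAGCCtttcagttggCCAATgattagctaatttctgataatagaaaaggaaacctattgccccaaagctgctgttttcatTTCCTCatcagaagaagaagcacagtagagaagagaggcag
Irg1, chr14:103046762-103047061, plus strand: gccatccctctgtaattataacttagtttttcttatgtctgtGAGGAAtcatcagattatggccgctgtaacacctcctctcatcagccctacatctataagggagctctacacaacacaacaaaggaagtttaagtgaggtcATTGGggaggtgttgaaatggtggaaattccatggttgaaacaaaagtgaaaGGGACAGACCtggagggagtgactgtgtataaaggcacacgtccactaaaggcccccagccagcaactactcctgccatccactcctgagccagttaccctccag

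Each window held 1 match to GGGNNNNNCC, 1 to GAGGAA and 1 to CCAAT, and neither held TGACTCA, the AP-1 motif. Of 32851 mouse promoter windows of the same length, 50.8% held GGGNNNNNCC, 28.3% GAGGAA, 37.4% CCAAT and 5.20% TGACTCA, so most of these matches are frequent in any promoter. A match is a description of the letters and does not show that a factor binds there.

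The steady-state library held 4827 cells with 22358903 UMIs (unique molecular identifiers, each counting 1 captured RNA molecule) and a median of 3371 UMIs per cell. The GM-CSF library held 6804 cells with 35007567 UMIs and a median of 4916. The Focus bundle held 2135 and 3940 of these cells, and 8 cell barcodes occurred in both libraries. Levels are UMIs per 1000000 UMIs (CPM) of all cells of a group, with exact 95% Poisson intervals where given, and intervals cover counting error only. Ratios are of CPM with 0.5 counts added to each sum, and a gene with at least 50 UMIs over both sums was counted as past 2-fold when its ratio was at least 2 or at most 0.5.

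The deposited labels were checked against marker genes before the levels were read. Cells labelled granulocytes carried mature neutrophil genes, at a summed level of the 8 markers of 109833 CPM in steady state and 105810 CPM after GM-CSF. Cells labelled neutrophils had in addition the granule protein genes of immature neutrophils (Ngp, Camp, Ltf, Elane and others), at 111888 and 97044 CPM for that list of 8, against 1131 and 2148 CPM in the granulocytes. They are called granule-forming neutrophils here, and the granulocytes mature granulocytes, names that rest on the granule protein list. The cells labelled cDC2-A went against their name: 5 NK cell markers summed to 18085 and 18923 CPM, whereas 5 DC markers summed to 6.99 CPM in steady state and were all at 0 after GM-CSF. They are called the cells labelled cDC2-A throughout. The steady-state cells of cell type MoMacDC_c4 (43 cells) also carried the NK cell markers, at 11214 CPM, against 0.349 CPM in the 595 cells of that label after GM-CSF.

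Cybb was high in granule-forming neutrophils and in the cell types MoMacDC_c1 and MoMacDC_c5 and, in steady state, lowest in mature granulocytes. It makes the catalytic subunit of the oxidase, and 7376 of the 11631 cells (63.4%) held at least 1 of its 69890 UMIs. In steady state its level was 2862 CPM in MoMacDC_c5, 2781 CPM in granule-forming neutrophils and 2510 CPM in MoMacDC_c1. The first and second of these levels could not be separated by their counts. Lower down stood MoMacDC_c2 with 1303 CPM, macrophages with 1256 CPM, B cells with 1020 CPM, progenitor DCs with 655 CPM and MoMacDC_c4 with 323 CPM. T cells had 140 CPM, the cells labelled cDC2-A 113 CPM and mature granulocytes 82.2 CPM, the lowest of the 11 cell types with at least 20 cells in that library. MoMacDC_c2 and macrophages, and likewise T cells and the cells labelled cDC2-A, were neighbours whose ratio had an interval that included 1.

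After GM-CSF, granule-forming neutrophils led with 2785 CPM, about the level of the steady state. Next came MoMacDC_c5 with 1479 CPM and MoMacDC_c1 with 972 CPM, and then MoMacDC_c4 with 678 CPM, macrophages with 656 CPM, B cells with 458 CPM and MoMacDC_c2 with 400 CPM, among which no neighbours were separable. Progenitor DCs stood at 335 CPM, mature granulocytes at 256 CPM, the cells labelled cDC2-A at 223 CPM, activated DCs at 80.6 CPM (9 UMIs in 20 cells) and T cells at 10.3 CPM. In steady state MoMacDC_c1 held 63.3% of all Cybb UMIs, MoMacDC_c5 16.3% and granule-forming neutrophils 8.04%. After GM-CSF the granule-forming neutrophils held 42.8% and MoMacDC_c1 26.2%.

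**Figure D1:**
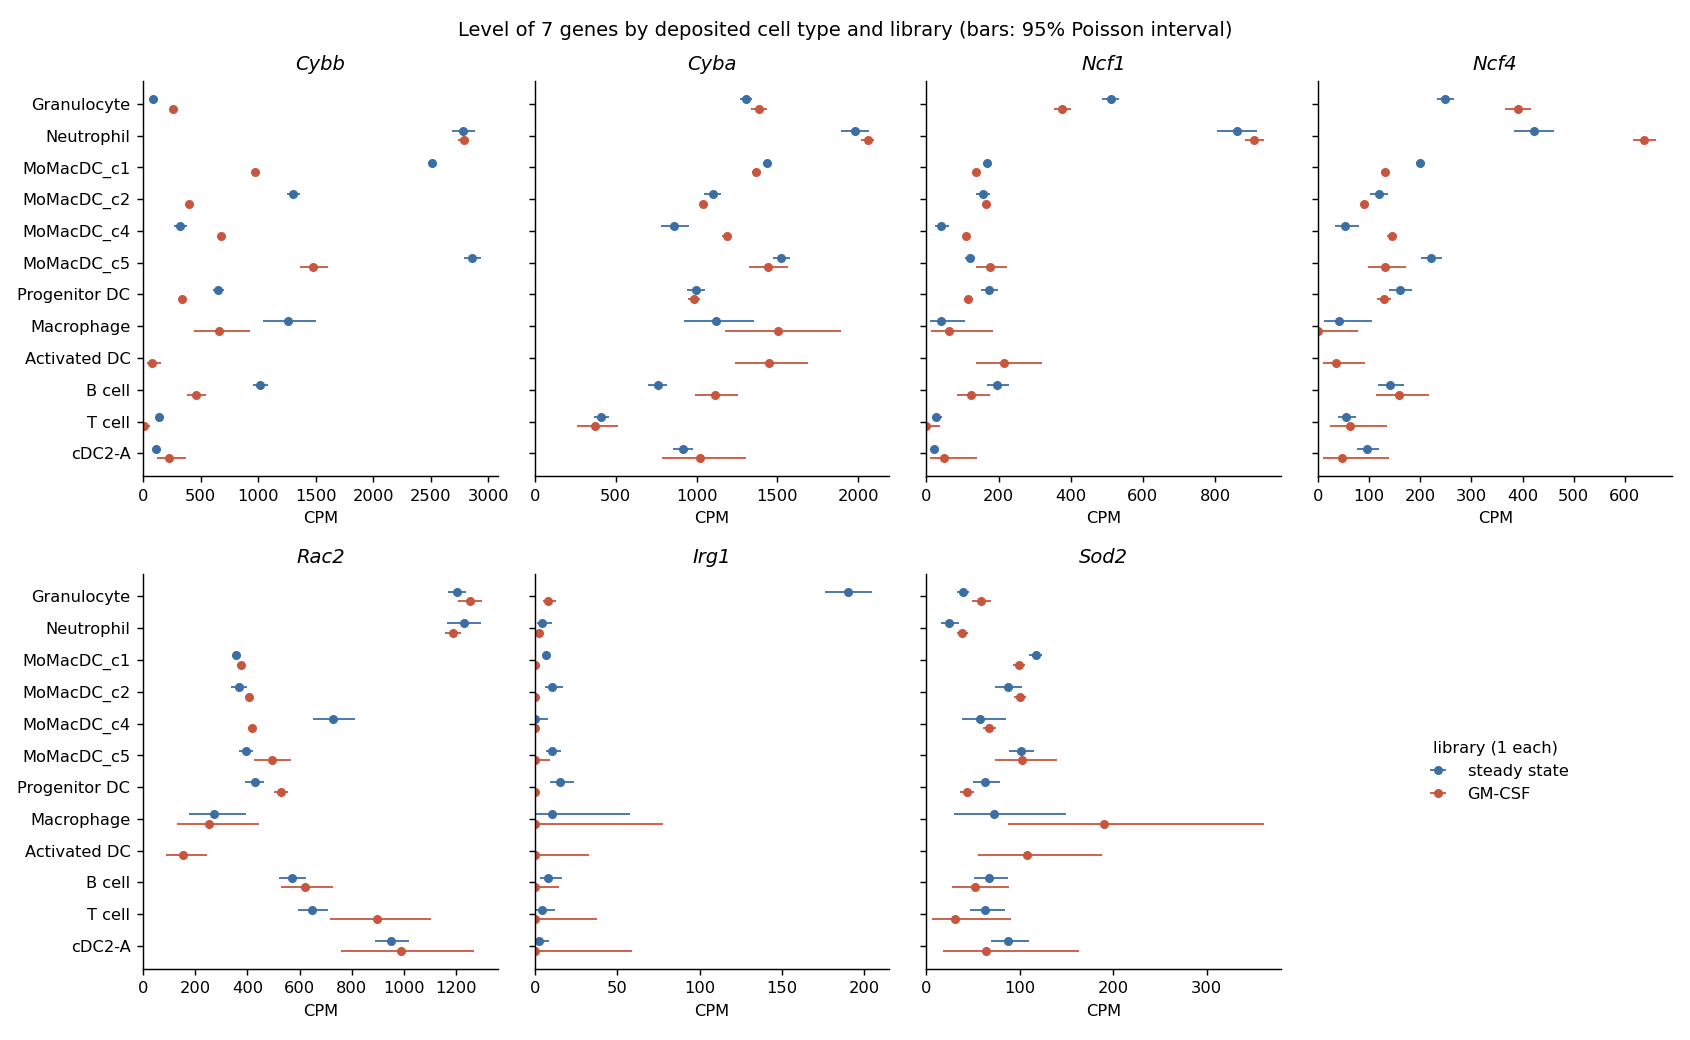
Level of each of 7 genes (CPM, linear axis from 0, own range per gene) by deposited cell type, with 1 point for the steady-state library and 1 for the GM-CSF library and exact 95% Poisson intervals as bars. Cybb stands at 2781 and 2785 CPM in granule-forming neutrophils in the 2 libraries, and Irg1 stands out in steady-state granulocytes at 190 CPM.

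Cyba, whose protein is the membrane partner of the Cybb product, was more evenly spread over cell types than Cybb. A UMI of Cyba was found in 10630 cells (91.4%). Its level ran in steady state from 409 CPM in T cells to 1978 CPM in granule-forming neutrophils, a 4.84-fold range, where Cybb had a 34.8-fold range over the same 11 cell types. After GM-CSF the lowest and highest levels of Cyba were again those of T cells (370 CPM) and granule-forming neutrophils (2058 CPM). MoMacDC_c1 stood at 1434 and 1366 CPM and mature granulocytes at 1303 and 1386 CPM, so the 2 states lay close together in both.

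The cytosolic subunits were highest in the neutrophil lineage. Ncf1, the organizer subunit, stood at 860 and 908 CPM in granule-forming neutrophils and at 511 and 377 CPM in mature granulocytes (steady state and GM-CSF), against 168 and 137 CPM in MoMacDC_c1. Ncf4, which binds phosphatidylinositol 3-phosphate on phagosomes, stood at 422 and 638 CPM in granule-forming neutrophils, at 249 and 390 CPM in mature granulocytes, and at 200 and 130 CPM in MoMacDC_c1. Both were low in T cells, with 27.5 and 0 CPM for Ncf1 and 55.0 and 61.7 CPM for Ncf4. The 97175 UMIs of the 39 T cells after GM-CSF allow a level of Ncf1 of up to 30.9 CPM at a count of 0.

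Rac2, a GTPase of all blood cell lineages that also drives the actin cytoskeleton, followed another order. Granule-forming neutrophils (1229 and 1186 CPM) and mature granulocytes (1204 and 1253 CPM) were high, as for Ncf1. The cells labelled cDC2-A (952 and 988 CPM) and T cells (649 and 895 CPM) also stood above MoMacDC_c1 (355 and 374 CPM), whereas both had less Cybb than MoMacDC_c1. Macrophages had the lowest Rac2 in steady state with 270 CPM, from 25 cells, but could not be separated from MoMacDC_c1 by their counts.

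Mature granulocytes were compared between the states first, since they were similar in number (1929 and 1791 cells). Of the 7 genes with enough UMIs, 2 were past 2-fold, Cybb upward and Irg1 downward, where 10.5% of all genes tested were past 2-fold in either direction. Cybb rested on 302 UMIs in steady state (82.2 CPM, interval 73.2 to 92.0) and 618 after GM-CSF (256 CPM, interval 236 to 277), a 3.11-fold higher level (2.71 to 3.59). A UMI of Cybb was found in 218 of 1929 granulocytes (11.3%) in steady state and in 393 of 1791 (21.9%) after GM-CSF. At a fixed 1000 UMIs per cell, which left out 8 and 496 shallower cells, the shares were 7.08% and 17.8%. T cells, which should lack the gene, held a Cybb UMI in 6.32% of cells in steady state and in 2.56% after GM-CSF, at medians of 3747 and 2357 UMIs per cell against 1770 and 1229 in granulocytes.

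The higher Cybb of the GM-CSF granulocytes came together with RNA of granule proteins, which granule-forming neutrophils make. The 8 markers of that list summed to 1131 CPM in steady state and 2148 CPM after GM-CSF, and 4 of its 5 genes with enough UMIs were past 2-fold: Ngp was 17.9-fold, Camp 6.61-fold, Ltf 6.13-fold and Chil3 4.88-fold higher. In an additional comparison chosen after these values were seen, cells with any UMI of Ngp, Camp or Ltf were left out. Among the remaining 1801 steady-state and 1299 GM-CSF granulocytes Cybb was 2.45-fold higher after GM-CSF.

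The other oxidase genes of mature granulocytes stayed within 2-fold. Ncf4 was 1.57-fold higher after GM-CSF (1.43 to 1.72), and Ncf1 had 0.738 times its steady-state level (0.681 to 0.799), so the cytosolic subunits differed in direction. Cyba (1.06) and Rac2 (1.04) were nearly level.

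**Figure D2:**
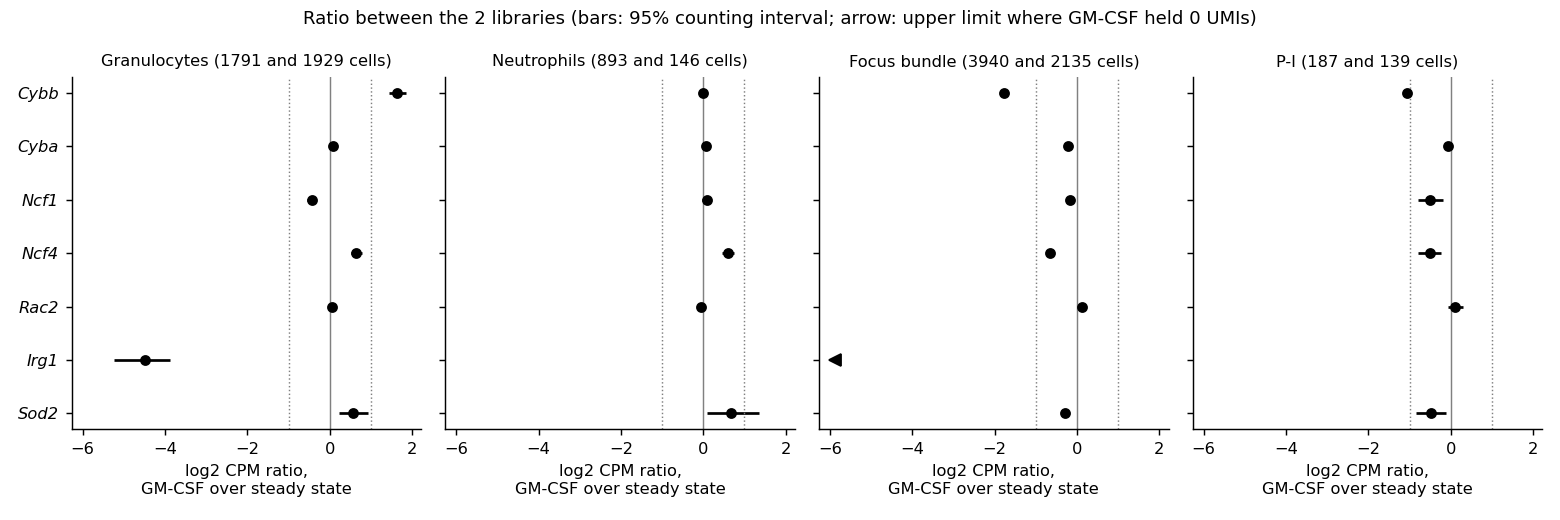
Log2 of the ratio of the GM-CSF to the steady-state CPM for each gene with enough UMIs in mature granulocytes, granule-forming neutrophils, the Focus bundle and P-I cells (cell numbers with GM-CSF first), with 95% counting intervals, a solid line at no difference and dotted lines at 2-fold in either direction. Cybb lies above the upper dotted line in granulocytes (a ratio of 3.11), on the solid line in granule-forming neutrophils and below the lower dotted line in the Focus bundle (0.294), where the arrow marks Irg1 at 0 UMIs after GM-CSF.

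In granule-forming neutrophils 0 of 6 genes tested were past 2-fold, where 6.10% of all genes tested were. Cybb was at 2781 CPM in the 146 steady-state cells and at 2785 CPM in the 893 GM-CSF cells, and the interval of their ratio ran from 0.963 to 1.04. Cyba (1.04), Ncf1 (1.06) and Rac2 (0.965) were also level. Ncf4 was 1.51-fold higher (1.37 to 1.67), close to its ratio in mature granulocytes.

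Granule-forming neutrophils and mature granulocytes differed within each state. Cybb was 33.8-fold higher in the granule-forming cells in steady state (30.1 to 38.2) and 10.9-fold higher after GM-CSF (10.0 to 11.8). Ncf1 was 1.68-fold and 2.41-fold, Ncf4 1.69-fold and 1.63-fold and Cyba 1.52-fold and 1.48-fold higher, while Rac2 had ratios of 1.02 and 0.947. Of the genes tested, 2 of 7 in steady state (Cybb higher, Irg1 lower) and 2 of 6 after GM-CSF (Cybb and Ncf1 higher) were past 2-fold, against a background of 40.7% and 40.4% of all genes, so these counts do not stand out. The median log2 ratio over genes with at least 50 UMIs in both sums was itself shifted, by −0.22 in steady state and −0.58 after GM-CSF, and that over all genes tested by −0.34 and −0.37. With the first shift taken out Cybb was 39.4-fold and 16.3-fold higher and Rac2 had ratios of 1.19 and 1.42, and with the second Cybb was 42.7-fold and 14.02-fold higher and Rac2 had 1.29 and 1.22, so the direction of Rac2 after GM-CSF turned under both. Hvcn1, the voltage-gated proton channel that carries charge alongside the oxidase, was past 2-fold in the same direction as Cybb, with ratios of 90.2 and 23.1. Most of the 8 oxidase partners tested went the other way: 2 were past 2-fold higher and 3 lower in steady state and 1 higher and 2 lower after GM-CSF, with median log2 ratios of −0.76 and −0.70.

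In the Focus bundle as a whole the direction of Cybb was opposite to that in granulocytes. Cybb stood at 2213 CPM in steady state (33087 UMIs in 2135 cells) and at 650 CPM after GM-CSF (17614 UMIs in 3940 cells), a 3.40-fold lower level, or a ratio of 0.294 (0.289 to 0.299). A Cybb UMI was found in 96.9% and 87.6% of the cells, and in 82.2% and 44.9% at 1000 UMIs per cell, with 14 and 61 shallower cells left out. Of the 7 genes tested Cybb and Irg1 were past 2-fold, both downward, where 18.1% of all genes tested were past 2-fold. Ncf4 had a ratio of 0.639 (0.608 to 0.673), Sod2 0.824, Cyba 0.866, Ncf1 0.883 and Rac2 1.09. The 4 classical monocyte markers (Ly6c2, Ccr2, Vcan and F13a1) summed to 2048 CPM in steady state and 625 CPM after GM-CSF. The 4 non-classical monocyte markers (Nr4a1, Ace, Treml4 and Cd300e) summed to 1170 and 152 CPM, and the part of either in the difference was not tested.

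The composition of the bundle differed between the states, so Cybb was followed within its clusters. Over the 12 clusters with at least 20 cells in both libraries Cybb was lower after GM-CSF in 11 and past 2-fold lower in 9, with ratios from 0.292 in cluster 3 to 2.36 in cluster 8 and a median of 0.449. Over these clusters together 13.1% of all tests of a gene were past 2-fold and 7.42% past 2-fold lower. MoMacDC_c1 (ratio 0.387, from 2510 to 972 CPM) and MoMacDC_c2 (0.307, from 1303 to 400 CPM), the 2 cell types with most bundle cells after GM-CSF, were also past 2-fold lower, where 12.7% and 12.8% of all genes were past 2-fold. Cluster 4 had the highest steady-state level with 3046 CPM in 460 cells, against 1500 CPM in 139 cells after GM-CSF. In cluster 2, with about as many cells in each library (307 and 297), Cybb stood at 2767 and 1297 CPM. When each of the 12 clusters counted equally, an average chosen after the data were seen, the ratio was 0.457.

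**Figure D3:**
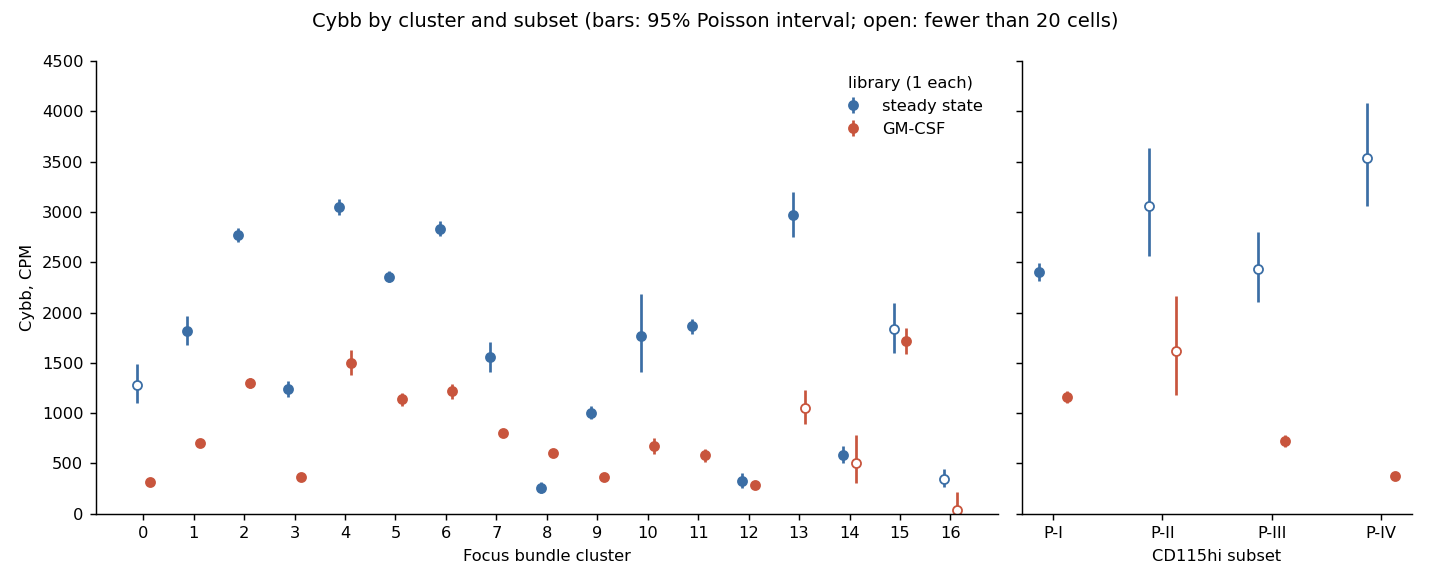
Cybb level (CPM, linear axis from 0) in each Focus bundle cluster on the left and in the CD115hi subsets P-I to P-IV on the right, with 1 point per library, open where it holds fewer than 20 cells, and exact 95% Poisson intervals as bars. Steady-state points lie above the GM-CSF points except in cluster 8, where they stand at 254 and 603 CPM, and the steady-state P-II, P-III and P-IV points rest on 8, 12 and 7 cells.

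Cluster 8 and the cell type MoMacDC_c4 ran against the other clusters, and their steady-state cells carried NK cell markers. Cybb in MoMacDC_c4 was 323 CPM in steady state and 678 CPM after GM-CSF, a ratio of 2.09 (1.78 to 2.50), with Ncf1 (2.64) and Ncf4 (2.64) also past 2-fold. The background there was high, with 24.7% of all genes past 2-fold, and the 5 NK markers summed to 11214 and 0.349 CPM. In cluster 8 (28 and 352 cells) Cybb had a ratio of 2.36, Ncf1 3.81 and Ncf4 2.24, with 23.5% of all genes past 2-fold and NK markers at 11449 and 0.273 CPM. Cells with a UMI of any of the 5 NK markers were then left out, again a choice made after these values were seen. The direction turned: Cybb in MoMacDC_c4 stood at 977 CPM in the 13 remaining steady-state cells and at 676 CPM in 593 GM-CSF cells, a ratio of 0.689 (0.579 to 0.833), and in cluster 8 the ratio was 0.723 (0.574 to 0.938) with only 4 steady-state cells left. The ratio of the whole bundle was 0.286 without such cells, close to that with them. Ncf1 and Ncf4 did not turn: without such cells their ratios in MoMacDC_c4 were 1.33 (0.751 to 2.91) and 1.60 (0.929 to 3.36), no longer past 2-fold. In cluster 8 Ncf4 had 1.26, and the 5.61 of Ncf1 rested on 1 steady-state UMI.

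Outside the monocyte and neutrophil lineages Cybb was past 2-fold lower after GM-CSF in B cells and T cells and past 2-fold higher in the cells labelled cDC2-A. B cells, whose 4 markers summed to 5326 and 5438 CPM, had a ratio of 0.451 (0.366 to 0.546), with 15.2% of all genes past 2-fold. Monocyte RNA in these cells was also lower after GM-CSF. The classical monocyte markers summed to 417 and 83.7 CPM and the non-classical ones to 640 and 47.8 CPM, and their part in the ratio was not tested. In T cells 102 steady-state UMIs sat in 11 of 174 cells, with up to 25 in 1 cell, against 1 UMI in 39 cells after GM-CSF, a ratio of 0.109 (0.00184 to 0.418), where 11.8% of all genes were past 2-fold. In the cells labelled cDC2-A all 14 UMIs after GM-CSF came from 1 of 20 cells, so their ratio of 2.04 (1.04 to 3.48) rests on a single cell, and 17.1% of all genes were past 2-fold there. Progenitor DCs (0.512) and macrophages (0.529) were also lower and stayed just within 2-fold. Activated DCs had only 8 cells in steady state, in which 4 cells held 101 Cybb UMIs (1233 CPM).

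The CD115hi subsets were gated by the authors on tags: Ly6C+ classical monocytes are P-I, an intermediate population is P-III, and the GM-CSF-induced DCs are P-IV. The deposited subsets used here differ in cell number from those printed in the paper's supplement, so they are not the same gates. In P-I cells Cybb stood at 2403 CPM in 139 steady-state cells and at 1158 CPM in 187 GM-CSF cells, a ratio of 0.482 (0.453 to 0.513). It was the only one of 6 genes tested past 2-fold, where 12.1% of all genes were, and it lies so near the limit that it no longer passed under other weightings: scaling by the median ratio gave 0.536 over genes with at least 50 UMIs in both sums and 0.517 over all genes tested. Ncf4 (0.705), Ncf1 (0.709) and Sod2 (0.718) were lower by less, Cyba was at 0.949 and Rac2 at 1.08. The classical monocyte markers, which should define P-I, summed to 2536 CPM in steady state and 977 CPM after GM-CSF. The non-classical markers summed to 902 and 277 CPM there, and the part of these differences in that of Cybb was not tested.

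From P-I over P-III to P-IV of the GM-CSF library Cybb stepped down. P-I had 1158 CPM (1102 to 1216), P-III 721 CPM (661 to 785, 126 cells) and P-IV 377 CPM (352 to 403, 313 cells), so none of the 3 intervals overlapped. The ratio of P-III to P-I was 0.623 (0.563 to 0.687) and that of P-IV to P-III 0.523 (0.468 to 0.584). Neither step passed 2-fold for any of the 6 genes tested, against 3.82% and 2.93% of all genes. At 1000 UMIs per cell a Cybb UMI was found in 69.9% of the classical monocytes, in 55.6% of P-III cells and in 31.2% of the induced DCs. Ncf4 stood at 148, 85.2 and 101 CPM, Cyba at 1427, 1197 and 1043 CPM, and Rac2 at 407, 402 and 383 CPM, so the core subunits Cybb and Cyba stepped down in this order while Rac2 stayed within its counting error. Ncf1 stood at 123, 135 and 148 CPM, with overlapping intervals. Mature neutrophil markers were higher in P-I (3568 CPM) than in P-III (224 CPM) and P-IV (189 CPM), and without the clusters rich in them (11, 14 and 15) the ratio of P-III to P-I was 0.610. Both red cell markers were at 0 in P-III and summed to 600.5 CPM in P-IV, and their part in the step was not tested.

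Levels were also read over the tag counts. P-I to P-IV were gated on the same tags, so the tag quartiles are no independent readout of the step from P-I to P-IV. Focus bundle cells of each library were ranked by their tag counts into quartiles. Cybb went up with Ly6C, from 1620 CPM in the lowest to 2665 CPM in the highest quartile of steady state and from 436 to 1037 CPM after GM-CSF. It went down with CD11c (2560 to 1560 CPM and 1053 to 376 CPM) and with MHC II (2565 to 1452 CPM and 1078 to 411 CPM). For CD301b, a lectin that marks the GM-CSF-induced DCs, the order was opposite in the 2 states: 1876 to 2456 CPM in steady state and 773 to 369 CPM after GM-CSF. CD301b tags were few in steady state, with quartile medians from 0 to 16 counts, against 5 to 320.5 after GM-CSF. The 2 orders therefore do not compare like tag levels, and the steady-state one ranks mostly cells with few CD301b counts. Ncf4 also went up with Ly6C, from 147 to 209 CPM and from 89.1 to 181 CPM, whereas Rac2 moved little, from 394 to 376 CPM and from 425 to 439 CPM. Quartiles of a tag also differ in cell type and total signal, and the part of these in the levels was not tested.

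**Figure D4:**
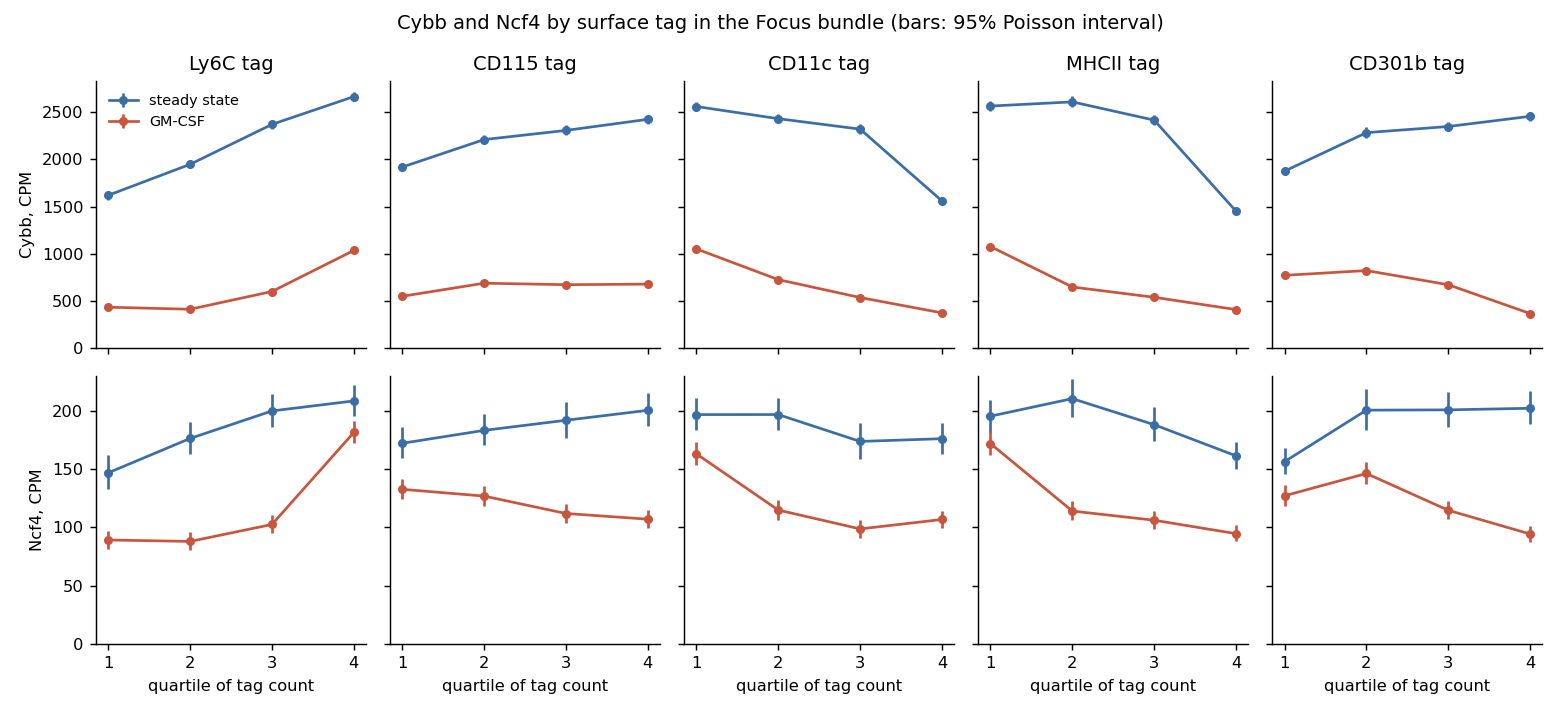
Cybb (upper row) and Ncf4 (lower row) levels in CPM, on linear axes from 0, over quartiles of the tag counts of Ly6C, CD115, CD11c, MHC II and CD301b among Focus bundle cells, with 1 line per library and exact 95% Poisson intervals. The Cybb lines end higher with Ly6C and lower with CD11c and MHC II in both libraries, and for CD301b they run from 1876 to 2456 CPM in steady state and from 773 to 369 CPM after GM-CSF. The CD301b quartiles have medians from 0 to 16 tag counts in steady state and from 5 to 320.5 after GM-CSF.

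Deposited cell cycle phases showed little spread of Cybb after GM-CSF, with 662 CPM in G1, 620 CPM in S and 643 CPM in G2M cells. In steady state G1 (2255 CPM) and S cells (2262 CPM) were alike and G2M cells lower, at 1650 CPM. Rac2 was higher in G2M than in G1 cells in both states, at 563 against 367 CPM and at 448 against 408 CPM. Steady-state cells of clusters 7 and 8, which the paper describes as rich in proliferation signatures, carried NK cell markers, at 4898 and 11449 CPM. Without cells holding these markers, steady-state cluster 7 stood at 1965 CPM of Cybb (1555 with them) and 367 CPM of Rac2 (611 with them). The part of such cells in the phase levels was not tested.

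Irg1 was found mainly in mature granulocytes of the steady state. It had 873 UMIs in 420 of 11631 cells (3.61%), and those granulocytes held 83.3% of the Irg1 UMIs of their library. They stood at 190 CPM (176 to 205; 699 UMIs), while the next levels were 15.4 CPM in progenitor DCs, 10.7 CPM in MoMacDC_c5 and 10.6 CPM in MoMacDC_c2. Granule-forming neutrophils had 4.58 CPM from 5 UMIs, a 37.8-fold lower level than the mature granulocytes. This ratio depended on the weighting of cells: the level of granule-forming neutrophils was 0.0660 times that of granulocytes with equal weight per cell and 0.126 times at 1000 UMIs per cell. After GM-CSF only mature granulocytes (20 UMIs, 8.29 CPM) and granule-forming neutrophils (14 UMIs, 2.84 CPM) had any Irg1 UMI.

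Between the states Irg1 in mature granulocytes was 22.4-fold lower after GM-CSF (14.7 to 37.8), from 190 to 8.29 CPM. An Irg1 UMI was found in 324 of 1929 cells (16.8%, 15.2 to 18.5) and in 16 of 1791 (0.893%, 0.511 to 1.45), and at 1000 UMIs per cell in 10.8% and 0.772%. T cells, at a higher median depth, held one in 3 of 174 cells (1.72%) in steady state and in 0 of 39 after GM-CSF, which allows a share of up to 7.69%. The 3940 Focus bundle cells after GM-CSF, with a median of 6654 UMIs, also held 0, which allows a share of up to 0.0761%. The granulocyte share therefore lay above that of the bundle in the GM-CSF library and above that of T cells in the steady-state library. Without granulocytes holding Ngp, Camp or Ltf the level was 20.8-fold lower, and over all settings tried it was 18.5-fold to 24.1-fold lower.

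Irg1 was unevenly spread among the steady-state granulocytes. Of the 324 positive cells 181 held 1 UMI, 115 held 2 to 4 and 28 held 5 or more, up to 20 in 1 cell, and those 28 cells carried 31.2% of the UMIs. At 1000 UMIs per cell the variance of the Irg1 count was 2.70 times its mean. In the same cells it was 1.70 times the mean for Cybb, 1.22 for Sod2, 1.11 for Ncf1, 1.08 for Ncf4, 1.07 for Cyba and 1.04 for Rac2. Poisson intervals take the variance as equal to the mean, so those of Irg1 and Cybb are too narrow. After GM-CSF 12 granulocytes held 1 UMI and 4 held 2.

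**Figure D5:**
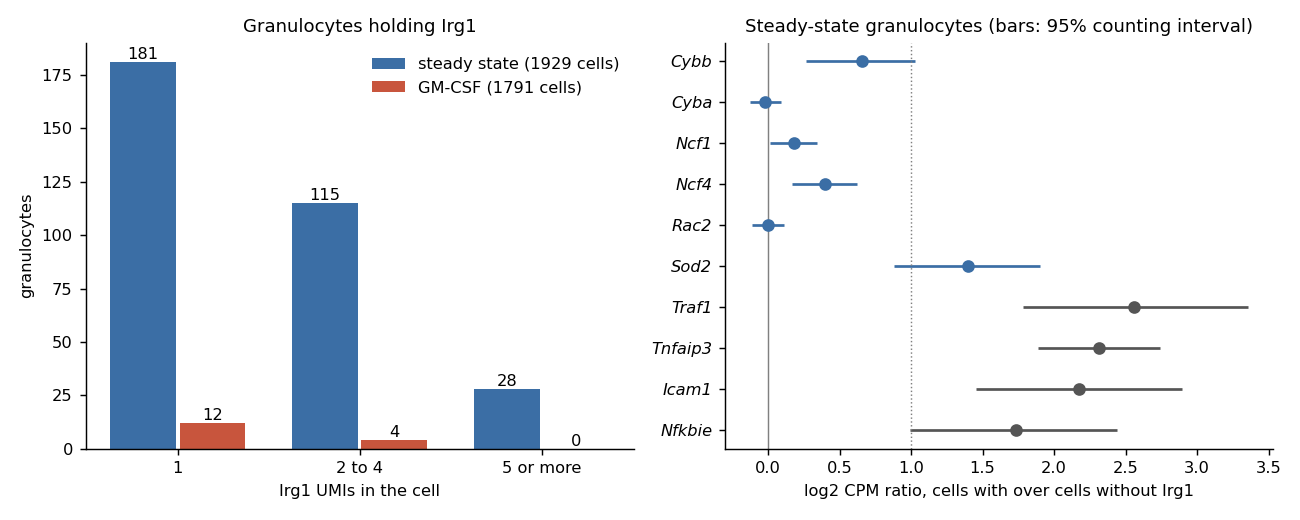
Number of mature granulocytes (linear axis) by their Irg1 UMI count in each library, and the log2 ratio of CPM between steady-state granulocytes with and without an Irg1 UMI, with 95% counting intervals, a dotted line at 2-fold, members in blue and NF-kB response genes in grey. In steady state 28 cells hold 5 or more UMIs and after GM-CSF none does, and Sod2 is 2.64-fold higher in the cells with Irg1.

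Granulocytes with and without an Irg1 UMI were compared within the steady-state library, a split made after the spread was seen. The 2 sets were close in depth (medians of 1821 and 1763 UMIs) and in mitochondrial share (0.343 and 0.311%). Sod2 was 2.64-fold higher in the cells with Irg1 (1.84 to 3.73) and was the 1 other gene of the 8 past 2-fold, where 2.45% of all genes tested were. Cybb was 1.58-fold, Ncf4 1.32-fold and Ncf1 1.13-fold higher, and Cyba (0.987) and Rac2 were level. Of 16 NF-kB response genes tested 8 were past 2-fold higher and 0 lower, against 0.979% of all genes higher. Traf1, an adaptor of TNF receptors, was 5.88-fold, Tnfaip3, which restrains NF-kB, 4.96-fold, Icam1, an adhesion molecule, 4.52-fold and Nfkbie, an inhibitor of NF-kB, 3.32-fold higher.

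Most Irg1 UMIs of the steady-state Focus bundle lay in 2 clusters with mature neutrophil RNA. There 51 of 2135 cells held 122 Irg1 UMIs, 71 of them in cluster 11 and 20 in cluster 14, and mature neutrophil markers summed to 21285 and 21888 CPM in those clusters. Irg1 UMIs per 1000 UMIs of S100a8, a calgranulin gene abundant in neutrophils, were 4.51 in mature granulocytes, 4.29 in T cells, 4.90 in progenitor DCs, 6.17 in B cells, 7.38 in cluster 11 and 7.57 in cluster 14. Other clusters, with few UMIs of either gene, stood higher: cluster 2 had 70.9 (10 Irg1 UMIs), cluster 4 36.2 (5), cluster 6 32.0 (4), cluster 3 22.7 (1), cluster 9 20.2 (6) and cluster 5 11.9 (2). Granule-forming neutrophils had 0.0371. Whether the Irg1 of the bundle came from granulocyte RNA was not tested. After GM-CSF the bundle held 0 Irg1 UMIs, an at least 73.7-fold lower level against the 3 counts that a count of 0 allows, and without clusters 11, 14 and 15 too few UMIs were left for the gene to be tested.

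Nos2 was nearly undetected, with 1 UMI in a steady-state granulocyte and 1 in a GM-CSF cell of MoMacDC_c2. In the steady-state Focus bundle 0 of 2135 cells held a Nos2 UMI, which allows a share of up to 0.141%, and the level could stand at up to 0.201 CPM. No comparison of Nos2 was made.

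Sod2, which turns mitochondrial superoxide into hydrogen peroxide, had 4657 UMIs in 3233 cells (27.8%). Its level was 117 and 99.0 CPM in MoMacDC_c1 and 101 and 102 CPM in MoMacDC_c5. Mature granulocytes had less, at 39.2 and 58.4 CPM, as had granule-forming neutrophils, at 23.8 and 38.5 CPM. The ratio of the states was 1.49 in mature granulocytes (1.17 to 1.89) and 0.824 in the Focus bundle (0.772 to 0.879), and neither passed 2-fold. In granule-forming neutrophils the ratio of 1.59 rested on 26 steady-state UMIs and was 0.881 at 1000 UMIs per cell.

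The wider pathways were read from lists of partner genes. Of 15 oxidase partners in the table (Rac1, Hvcn1, protein kinases and others) 6 had enough UMIs in mature granulocytes and 0 of them passed 2-fold between the states, with a median log2 ratio of −0.27 against 0.11 for all genes tested. In the Focus bundle 2 of 8 passed, both downward: Prkcd (0.49) and Prkcb (0.50), the kinases that phosphorylate the organizer subunit. Prkcd was the only 1 of 6 past 2-fold in P-I cells, with a ratio of 0.46. These shares are to be read against 9.46% of all genes past 2-fold lower in the bundle and 7.12% in P-I cells. Of the genes of nitric oxide and arginine metabolism 1 of 5 passed upward in granulocytes, Nosip (2.05), where 7.29% of all genes did, and 1 of 9 downward in the bundle, Arg2 (0.25), the mitochondrial arginase. Among granule peroxidase and protease genes Mpo, the myeloperoxidase, was the 1 of 4 past 2-fold in granule-forming neutrophils, with a ratio of 0.38. There 6.10% of all genes were past 2-fold in either direction.

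Antioxidant genes past 2-fold went in different directions by cell type. In granule-forming neutrophils 3 of 18 passed 2-fold upward after GM-CSF, the peroxiredoxins Prdx2 (2.65) and Prdx1 (2.04) and the catalase gene Cat (2.51), where 3.62% of all genes passed upward. In mature granulocytes 1 of 17 did, Prdx1 (2.71), where 7.29% of all genes did. In the bundle 5 of 23 passed, all downward, where 9.46% of all genes passed downward, among them Nfe2l2 (0.27), the transcription factor of the antioxidant response, Slc7a11 (0.31), the cystine importer, and the glutathione reductase Gsr (0.38). In P-I cells, where 7.12% of all genes passed downward, 3 of 20 did, Nfe2l2 (0.38), Slc7a11 (0.41) and Gclc (0.47), the rate-limiting enzyme of glutathione synthesis. As a whole the list was not shifted down in either. In the bundle 11 of 23 genes lay above 1, with a median log2 ratio of −0.02 against −0.06 for all genes tested. In P-I cells 11 of 20 did, with a median of 0.06 against −0.10. The medians were 0.26 against −0.05 in granule-forming neutrophils and 0.21 against 0.11 in granulocytes.

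Of the NF-kB response list, genes passed 2-fold downward in both lineages and none upward. In mature granulocytes 5 of 17 passed, with a list median log2 ratio of −0.51, where 3.20% of all genes passed downward. Ptgs2, the inducible cyclooxygenase, stood at 854 CPM in steady state and 41.0 CPM after GM-CSF, a ratio of 0.0483 beside 0.0446 for Irg1, and Il1b stood at 7223 and 2702 CPM. In the bundle 10 of 18 passed downward, where 9.46% of all genes did, with a median of −1.11 against −0.06 for all genes tested. Ccl3 (0.06) and Ccl4 (0.10), chemokine genes, had the lowest ratios.

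Genes with a pattern like that of a member were ranked by Pearson's r of log2(CPM + 10) over 23 groups of a cell type in a library, among 6205 genes. Groups share libraries and depth, so r is a description. Irg1 was most like Ptgs2 (r = 0.913), Ets2 (0.828) and Il1b (0.820), and Cybb most like Lyz2 (0.792), the macrophage lysozyme, Agps (0.782) and Aldh2 (0.779). Aldh2 (0.829) also led for Cyba, ahead of Atp6v0b (0.808) and Dstn (0.805). Cyb5r4 (0.888) led for Ncf1, Chst12 (0.884) for Ncf4, Tob1 (0.908) for Rac2 and Bag3 (0.847) for Sod2. Among the members themselves r was 0.769 for Cyba and Ncf1, 0.667 for Ncf1 and Ncf4, 0.651 for Cybb and Cyba, and −0.735 for Rac2 and Sod2.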

How the data were processed

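RNA and antibody tags of CD11b+ splenocytes were read in 1 library per state. The authors deposited counts: UMIs per gene from Cell Ranger 3.0.2 on mm10 and counts per tag, with cells of 200 to 5000 genes and at most 15% mitochondrial UMIs kept. The mitochondrial share is deposited in percent. Cell types, clusters, subsets and phases are deposited labels, made with Seurat (3.6.0 in the submitters' processing notes).

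Here counts were summed per group and library and divided by the total. Intervals are exact (Poisson for CPM, Clopper-Pearson for shares, conditional binomial for ratios) at the 95% level. Shares were repeated after drawing 1000 UMIs per cell (seed 11). The ratio and its interval were tested on simulated Poisson counts. The interval assumes such counts, so the test does not cover the wider spread of real counts. Scrublet called 327 doublets (2.811%), which were kept and left out in an alternative. Members in every comparison, up to 4 genes per list with the largest change, the 3 most alike genes per member and markers were named. Members and lists were chosen with earlier results of these data known. Python 3.11.15, scipy 1.17.1, scanpy 1.11.5, pandas 2.3.3 and numpy 2.4.6 were used. No protein sequences were used here.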

Additional observations from a re-analysis of the deposited data

Results flagged for a closer look

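The ratio of the GM-CSF to the steady-state level of Cybb lay past 2-fold in opposite directions in different cell types. It was 3.11 in mature granulocytes, 2.09 in MoMacDC_c4 and 2.04 in the cells labelled cDC2-A, and it was 0.451 in B cells, 0.387 in MoMacDC_c1, 0.307 in MoMacDC_c2 and 0.109 in T cells. Each state was 1 library, so the difference between cell types was not tested. The value in MoMacDC_c4 became 0.689 without cells carrying NK cell markers, and that in the cells labelled cDC2-A rests on 14 UMIs of 1 cell. The value in T cells rests on 1 UMI after GM-CSF. Ngp, a granule protein gene, was 17.9-fold higher in the GM-CSF granulocytes, and without cells holding Ngp, Camp or Ltf the Cybb ratio in granulocytes was 2.45. Most other cell types also had more Ngp after GM-CSF, and the source of that RNA was not tested.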

How the results depend on the processing

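Over the alternatives, 382 of 464 values of single genes stayed within their counting interval and 82 moved beyond it. The ratio came to lie on the other side of 1 in 26 of them, none for a gene past 2-fold in the reported values. Counts of members past 2-fold stayed within 1.5 times in all but 15 of 105 cases. With a limit of 1.5-fold, the count was 2 in granule-forming neutrophils (0 at 2-fold), 2 for P-III against P-I (0), 1 for P-IV against P-III (0), and 4 and 6 for granule-forming neutrophils against granulocytes after GM-CSF and in steady state (2 and 2), where 21.4%, 14.7%, 13.1%, 62.4% and 61.9% of all genes passed. Between granule-forming neutrophils and granulocytes, scaling by the median ratio over genes with at least 50 UMIs in both sums made the count 4 after GM-CSF, and scaling by that over all genes tested, chosen after the data were seen, made it 3 after GM-CSF and 4 in steady state. In the Focus bundle the count was 1, not 2, at 1000 UMIs per cell and without clusters 11, 14 and 15, since Irg1 then had too few UMIs. In P-I the count was 0, not 1, with equal weight per cell, at 1000 UMIs per cell, with either median-ratio scaling and in G1 cells alone, and 2 without a minimum of UMIs, and Cybb was 1.87-fold to 2.14-fold lower over all settings. Cybb in the Focus bundle was 2.19-fold lower with equal weight per cluster. Irg1 there, at 0 UMIs after GM-CSF, was 444-fold lower with 0.5 counts added, 46.0-fold lower with 5 and 16.5-fold lower with equal weight per cluster, so its fitted ratio is no bound. Between neutrophils and granulocytes of the steady state Irg1 had a ratio of 0.0660 with equal weight per cell and 0.126 at 1000 UMIs per cell, and Sod2 1.12 (0.618 as reported) at 1000 UMIs per cell. No paired analysis was possible because each state has 1 library, and for the same reason no library could be left out. Phases of granulocytes and neutrophils were not used here, so a comparison of their G1 cells was not run. Depth limits Irg1 after GM-CSF (20 UMIs in granulocytes), Nos2 (2 UMIs in all) and the steady-state P-II, P-III and P-IV subsets (8, 12 and 7 cells).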
